A study of Cucumis melo with 6 samples.

Results

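The genes described here are the 88 gene models of melon (Cucumis melo) that are annotated with 30 or more exons, out of 28299 genes counted. They were chosen by structure alone: the exon number is the number of different start and end pairs listed for a gene in the annotation, and no measured value entered the choice. Expression came from strand-specific poly(A) RNA sequencing of leaves of an inbred, monoecious Charentais-type cantaloupe line, with 3 libraries of the wild type (WT) and 3 of the double mutant lhp1ab. The mutant is in the same line and carries changes induced by the mutagen EMS in both LHP1 genes, G1970A in Cmlhp1a and C1930T in Cmlhp1b, each counted on the genomic sequence from the ATG. Growth was under glass, with days of 16 h at 27 °C, nights of 8 h at 21 °C and 60% relative humidity; leaf age is not stated. The double mutant is 1 combination of alleles, and other induced changes that such a line can carry cannot be told apart from those in the LHP1 genes. The 88 genes were compared with genes of 2 to 5 exons in the same range of expression in WT.

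A gene with many exons gives a long primary transcript from which many introns are removed before the messenger RNA leaves the nucleus, and its mature transcript is usually long as well. In RNA sequencing, a long transcript gives more fragments than a short one at the same number of molecules. LHP1 is a plant chromodomain protein that binds histone H3 trimethylated at lysine 27, the mark that Polycomb proteins set at silent genes. The series compares the genotypes to learn what the CmLHP1 proteins do in development and in keeping melon plants monoecious. No gene name or product stands beside the identifiers, so the functions of the 88 genes, the leaf identity of the samples and the level of the targeted LHP1 genes were not examined. Genes are therefore identified by position on release 4.0 of the melon genome.

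Each WT library held between 20551374 and 22366054 counts, and each lhp1ab library between 15335390 and 17647188. Replicate 1 of lhp1ab stood apart from the other mutant libraries in the genes with 30 or more exons, although its total of 16635364 counts lay between theirs. The 88 genes together took 0.758%, 0.831% and 0.703% of the counts of WT replicates 1, 2 and 3, and 0.552%, 0.818% and 0.854% of those of lhp1ab replicates 1, 2 and 3. The lowest share was that of lhp1ab replicate 1, and the other mutant libraries lay inside or above the WT values. The means were 0.764% ± 0.0642 in WT and 0.741% ± 0.165 in lhp1ab (SD, n = 3), a difference smaller than the spread between the mutant libraries. Genes of 2 to 5 exons in the same range of WT expression took 30.8% of the counts of lhp1ab replicate 1 and 30.1% and 29.97% of those of replicates 2 and 3. Values without lhp1ab replicate 1 are given below beside the counts of calls, the spread and the changes of named genes.

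The 88 genes were long and made of many small exons. They had 30 to 79 exons with a median of 36, and no annotated exons of a gene overlapped each other. Exon length, the summed length of all exons, ranged from 2.94 to 16.8 kb with a median of 5.68 kb, against 1.41 kb in the 6663 genes of 2 to 5 exons in the same WT range. The genes spanned 10.2 to 79.7 kb of the genome with a median of 22.2 kb, and exons covered a median of 25.9% of the span, against 56.8% in the comparison genes. The typical exon was short: the median over genes of the median exon size was 114 bases, against 367 bases in the comparison genes. The genes lay on all 12 chromosomes, from 3 on chromosome 12 to 11 each on chromosomes 2 and 11, and 41 of 88 were on the plus strand. The span of 3 of them (3.41%) overlapped another gene on the same strand, against 4.29% of the comparison genes. Exon bases, where a read can count for both genes, were shared in 2 of them and in 268 of the 6663 comparison genes.

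Counts were found in these leaves for every gene with 30 or more exons. All 88 had counts in all 6 libraries and all 88 passed the filter on low counts, while 21.2% of the 11937 genes with 2 to 5 exons and 42.6% of the 7414 single-exon genes had a count of 0 in every library. At least 10 counts were reached in every library by 86 of the 88 genes (97.7%), against 57.5% of the genes with 2 to 5 exons and 58.2% of all genes. These shares take genes of every level and length. The 6663 genes of 2 to 5 exons in the same WT range all passed the filter on low counts too. By library, 88 genes reached 10 counts in each WT library, and 86, 88 and 87 did so in lhp1ab replicates 1, 2 and 3; after each library was thinned to 15335390 counts these numbers were the same. The share of genes with at least 10 counts in every library was 77.2% at 6 to 10 exons, 90.4% at 11 to 15, 93.8% at 16 to 20, 96.7% at 21 to 25 and 98.8% at 26 to 29 exons. A count of 0 would have allowed up to 3 counts, or 0.134 to 0.196 CPM (counts scaled to a library total of 1000000), and no gene of the set was at 0. The lowest value of the set, 3 counts in lhp1ab replicate 1, was at that limit.

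Levels per kilobase of exon were above the median of all genes and somewhat below that of few-exon genes in the same CPM range. Mean WT levels ranged from 1.20 to 615 CPM with a median of 65.1 CPM, against a median of 3.11 CPM over all genes with 2 to 5 exons. Per kilobase of exon, the median of the 88 genes was 11.1 CPM per kb in WT, with quartiles at 7.39 and 17.6. The comparison genes of the same CPM range had a median of 13.4 CPM per kb with wider quartiles, at 5.57 and 31.04. These comparison genes were shorter and had a lower median level, 19.3 CPM. The median in WT was 3.59 CPM per kb over all genes and 2.94 CPM per kb over all genes with 2 to 5 exons. The median level per library was 63.8, 72.8 and 59.3 CPM in WT replicates 1, 2 and 3, and 39.3, 62.5 and 62.9 CPM in lhp1ab replicates 1, 2 and 3.

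Both genes with 79 exons, the highest number, were expressed at moderate levels and were not called as changed. The one on the minus strand of chromosome 1 at 35193278 to 35231183 with 16.8 kb of exons, had 76.6, 89.0 and 68.6 CPM in WT and 33.4, 72.7 and 74.7 CPM in lhp1ab. Its mutant replicates 2 and 3 lay within the WT values and replicate 1 lay far below them (log2 fold change -0.33, SE 0.23, edgeR adjusted p = 0.21). The other, on the plus strand of chromosome 2 at 25940494 to 26002182 with 9.55 kb of exons, had 33.6, 39.2 and 36.3 CPM in WT and 18.5, 34.96 and 34.95 CPM in lhp1ab. Again only lhp1ab replicate 1 was low (log2 fold change -0.26, SE 0.18, edgeR adjusted p = 0.215). Without that library the log2 fold changes of these genes were -0.039 and -0.012.

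The genes next in exon number were both called. A gene of 63 exons on the minus strand of chromosome 4 at 317258 to 393583, had 43.9, 50.7 and 42.2 CPM in WT and 44.8, 90.2 and 88.7 CPM in lhp1ab. It rose by 0.75 (log2 scale, SE 0.20, edgeR adjusted p = 0.00619), although lhp1ab replicate 1 lay within the WT values, and by 1.02 without that library; it overlaps a gene on the opposite strand, which was counted apart. A gene of 60 exons on the minus strand of chromosome 5 at 16372938 to 16429698, had 159, 182 and 149.9 CPM in WT and 67.2, 118 and 123.2 CPM in lhp1ab. All mutant libraries lay below all WT libraries, and the gene fell by 0.62 (log2 scale, SE 0.17, edgeR adjusted p = 0.00754), against 0.39 without lhp1ab replicate 1.

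The highest levels per kilobase belonged to genes with 30 to 32 exons. A gene of 30 exons on the plus strand of chromosome 3 at 3384751 to 3397254, had 613, 683 and 548 CPM in WT and 323, 444 and 469 CPM in lhp1ab, or 105 and 70.2 CPM per kb on average. All mutant libraries were below all WT libraries, and it fell by 0.53 (log2 scale, SE 0.12, edgeR adjusted p = 0.00227), against 0.38 without lhp1ab replicate 1. A gene of 30 exons on the minus strand of chromosome 1 at 32546528 to 32562188, averaged 80.7 CPM per kb in WT, with 294, 289 and 284 CPM there and 246, 339 and 357 CPM in lhp1ab. It was not called with all libraries (log2 fold change 0.17, SE 0.11, edgeR adjusted p = 0.183) and was called higher without lhp1ab replicate 1 (0.31, adjusted p = 0.000102). The third, a 32-exon gene on chromosome 4 at 62.7 CPM per kb in WT, is described among the genes that rose.

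At the other end, 2 genes were barely above detection. A gene of 31 exons on chromosome 9, from 6984608 to 6997223, had 20, 26 and 31 counts in WT and 3, 11 and 7 counts in lhp1ab, and it was called lower (log2 fold change -1.45, SE 0.36, edgeR adjusted p = 0.00393), also without lhp1ab replicate 1 (-1.10, adjusted p = 0.012). A gene of 37 exons on chromosome 5, from 27032434 to 27045727, had 1.02, 1.78 and 1.12 CPM in WT and 0.301, 1.47 and 0.652 CPM in lhp1ab. Its libraries overlapped between the genotypes, and the change of -0.61 on the log2 scale was not called (SE 0.44, edgeR adjusted p = 0.229).

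**Figure D1:**
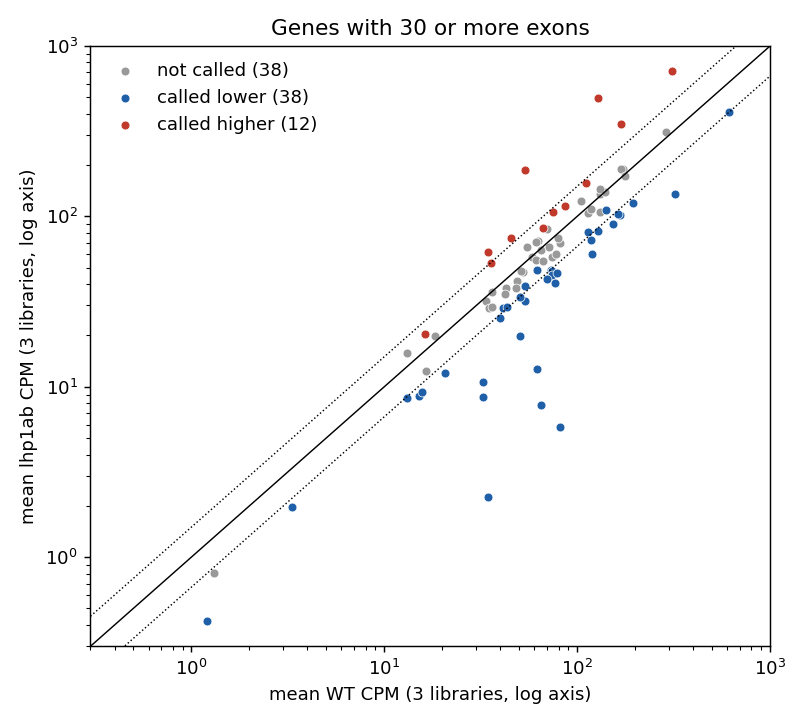
Mean CPM in lhp1ab against mean CPM in WT for each of the 88 genes with 30 or more exons, on log axes, coloured by the edgeR call; the solid line marks equal levels and the dotted lines a 1.5-fold difference. Of the 88 points, 12 were called higher, 38 lower and 38 were not called, and a handful of lower genes lie far from the line.

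Replicates of the mutant differed far more in genes with 30 or more exons than in genes with few exons at the same expression. The coefficient of variation (CV, the SD over the mean of CPM between the 3 libraries) had a median of 23.4% in lhp1ab, with quartiles at 18.8% and 28.0%, and of 8.42% in WT. Comparison genes of 2 to 5 exons, weighted to the same distribution over ranges of WT CPM, had 6.61% in lhp1ab and 4.99% in WT. The many-exon genes had 3.54 times the comparison value in lhp1ab and 1.69 times in WT. With the dispersion that edgeR moderates across genes, the ratios were 1.72 and 1.16, and in CVs against few-exon genes with at least 4 kb of exons they were 1.40 and 1.13. The CV was larger in lhp1ab than in WT in 87 of the 88 genes (98.9%), against 61.8% of the comparison genes. The median CV in lhp1ab was 7.80% at 2 to 5 exons, 6.59% at 6 to 10 and 7.49% at 11 to 15. It was then 10.9% at 16 to 20, 13.4% at 21 to 25 and 17.8% at 26 to 29 exons. Above the limit it was 19.4% at 30 to 34, 23.5% at 35 to 39, 25.4% at 40 to 49 and 27.4% at 50 or more exons.

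**Figure D2:**
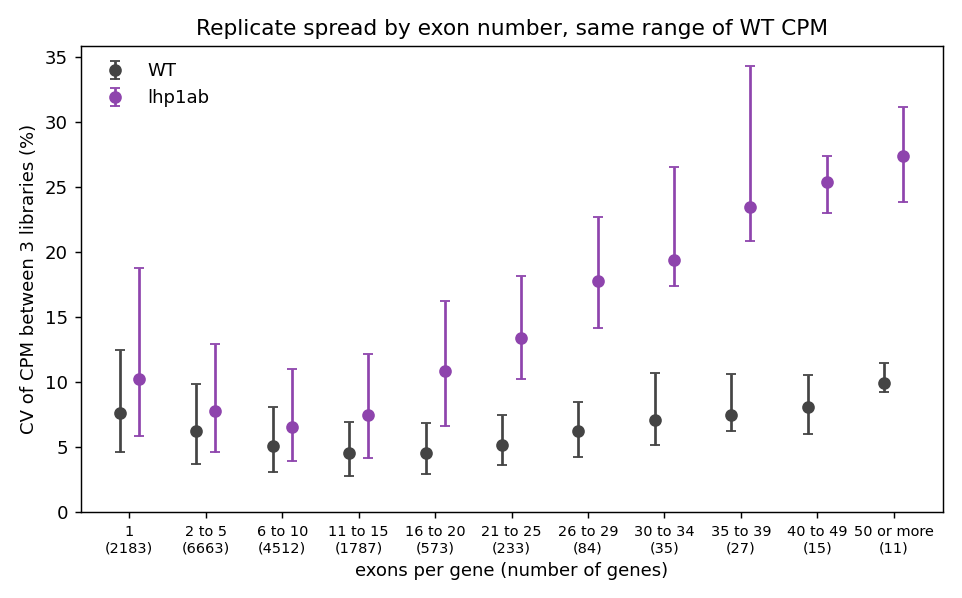
CV of CPM between the 3 libraries of a genotype for genes grouped by exon number, all within the WT range of the many-exon genes; points are medians over genes and bars run from the first to the third quartile, with the number of genes in brackets. Medians in lhp1ab go from 6.59% at 6 to 10 exons to 27.4% at 50 or more exons, and WT medians stay at or below 9.95%.

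The spread in lhp1ab rested on 1 library. Replicate 1 was below both other mutant libraries in 87 of the 88 genes (98.9%), against 36.4% of the comparison genes. The exception was a weakly expressed gene of 40 exons on chromosome 11 from 484415, with 2.04, 1.81 and 2.09 CPM in lhp1ab. On the log2 scale, the median deviation of the 88 genes from the mutant mean was -0.39 in replicate 1, 0.16 in replicate 2 and 0.22 in replicate 3. The comparison genes deviated by 0.043, -0.012 and -0.025 in the same libraries. Without replicate 1 the median CV over the remaining mutant libraries was 3.41% in the many-exon genes and 3.31% in the weighted comparison genes, a ratio of 1.03.

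WT libraries showed the same kind of ordering at a smaller size. Replicate 2 was the highest WT library in 82 of the 88 genes and replicate 3 the lowest in 77, against 27.0% and 31.04% of the comparison genes. The median deviations from the WT mean were -0.012, 0.12 and -0.11 in replicates 1, 2 and 3.

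**Figure D3:**
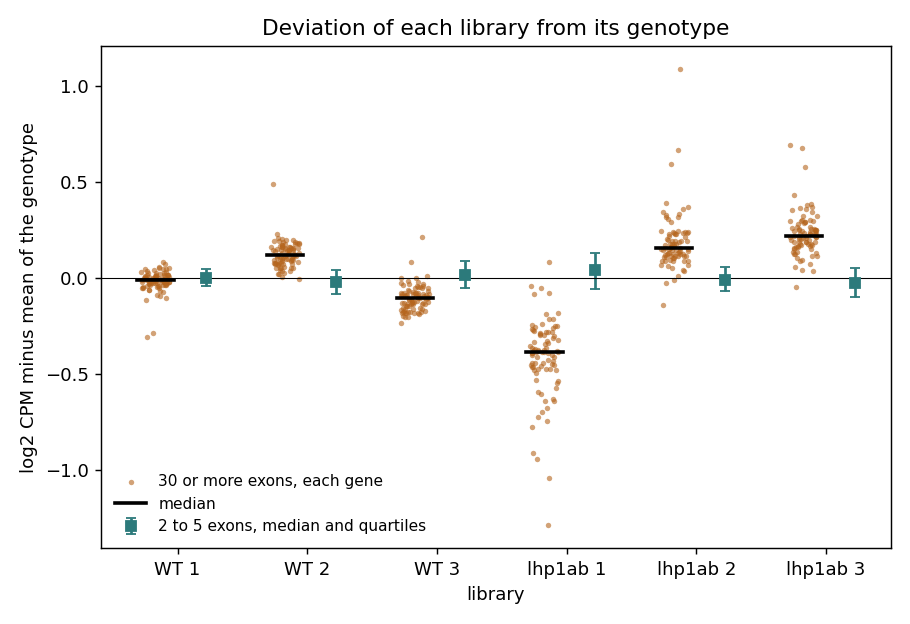
Deviation of each library from the mean of its genotype on the log2 scale, for each of the 88 genes with 30 or more exons (points, with the median as a bar) and for genes of 2 to 5 exons in the same WT range (squares with quartiles). The many-exon genes sit at a median of -0.39 in lhp1ab replicate 1 and at 0.16 and 0.22 in the other mutant libraries, while the comparison genes stay near 0.

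Exon length moved with this deviation more closely than exon number did. Across the 88 genes, Spearman's rho between the deviation of lhp1ab replicate 1 and exon length was -0.74, and with exon number it was -0.33; exon length and exon number themselves had a rho of 0.61. These values describe genes of the same libraries, which are not independent points. Genes of 2 to 5 exons showed the deviation as well where they were long: its median was 0.11 under 1 kb of exons, 0.063 at 1 to 2 kb, -0.034 at 2 to 3 kb, -0.13 at 3 to 4 kb, -0.19 at 4 to 5 kb and -0.29 at 5 to 7 kb. At the same length the many-exon genes lay lower, at -0.28 in 18 genes of 4 to 5 kb and -0.39 in 35 genes of 5 to 7 kb. Among genes of 5 to 7 kb, the median CV in lhp1ab was 23.7% in the many-exon genes and 19.3% in the 34 genes of 2 to 5 exons. The part of exon length in these differences was not tested beyond these classes.

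**Figure D4:**
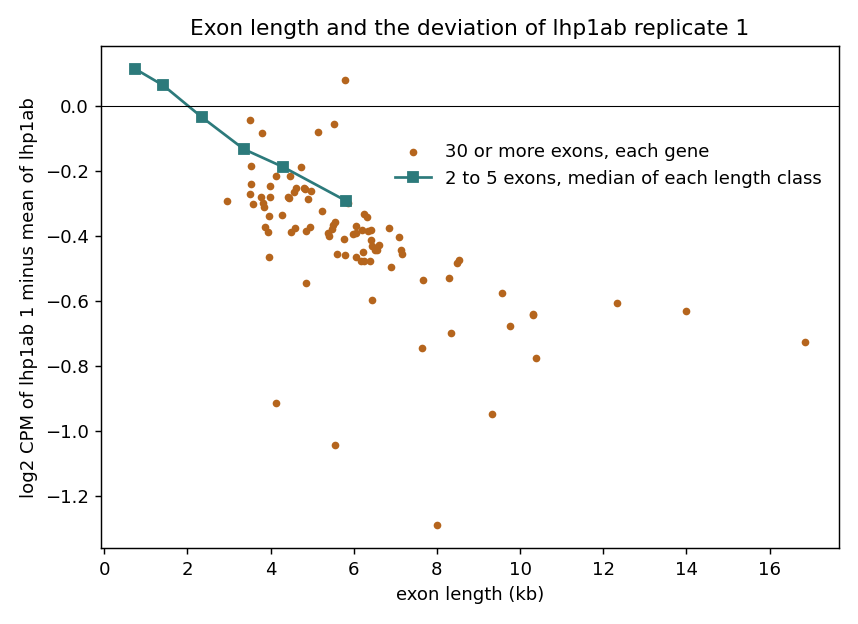
Deviation of lhp1ab replicate 1 from the mutant mean (log2 scale) against exon length in kb, for each gene with 30 or more exons (points) and as class medians for genes of 2 to 5 exons (squares, classes of at least 20 genes). Both go down with length, and at 5 to 7 kb the medians are -0.39 and -0.29.

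The largest replicate spread at 5 CPM or more was that of a 32-exon gene on the minus strand of chromosome 2 at 11909105 to 11988835. It is also the gene with the longest span, 79.7 kb. It had 18.6, 20.7 and 15.4 CPM in WT and 6.67, 25.6 and 27.5 CPM in lhp1ab, so that mutant replicate 1 lay below all WT libraries and the other mutant replicates above them. Its change was not called with all libraries (log2 fold change 0.17, SE 0.35, edgeR adjusted p = 0.671) and was called higher without replicate 1 (0.59, adjusted p = 0.000245). The largest WT spread above that level was a CV of 14.7%, in a 35-exon gene on chromosome 6 from 4421398 to 4443537 with 166, 201 and 151 CPM in WT and 113, 227 and 228 CPM in lhp1ab. This gene too was called only without lhp1ab replicate 1 (log2 fold change 0.44, adjusted p = 0.000665, against 0.18 and 0.464 with it).

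With all libraries, a smaller share of the genes with 30 or more exons than of all genes tested was called as changed in lhp1ab. Of the 88 genes, 12 were called higher and 38 lower (adjusted p threshold 0.05 in the quasi-likelihood test of edgeR), and 38 were not called. Among all 17988 genes tested, 36.9% were called higher and 38.5% lower, 75.5% in all, so the 13.6% called higher were below the background and the 43.2% called lower somewhat above it. The comparison genes of 2 to 5 exons, weighted to the same ranges of WT CPM, had 30.6% called higher and 51.8% lower. All 3 libraries of one genotype lay above all 3 of the other in 48 genes (54.5%), 8 of them higher and 40 lower in lhp1ab, against 77.5% of all genes tested. Without lhp1ab replicate 1, 27 were higher and 40 lower, 76.1% against 83.2%. In leaf samples, fewer cells of a type and less RNA per cell cannot be told apart.

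The deficit of higher calls rested in large part on lhp1ab replicate 1. Without that library, 28 genes (31.8%) were called higher and the same 38 (43.2%) lower, against a background of 38.3% higher and 37.7% lower. The weighted comparison genes then had 31.2% called higher and 53.2% lower. The 28 were the 12 called before and 16 more, with log2 fold changes from 0.15 to 0.62 without the library. The share called was then 75%, close to the 76.0% of all genes tested, against 84.4% of the weighted comparison genes. With all libraries it had been 56.8%, against 75.5% of all genes tested and 82.4% of the weighted comparison genes. The median log2 fold change was -0.26 with all libraries and -0.041 without replicate 1, against -0.25 in the weighted comparison genes both times. With all libraries the typical change was thus close to the weighted value of few-exon genes, and without replicate 1 it was smaller. Unweighted, the median of the comparison genes was -0.058 with all libraries. Taken library by library against the WT mean, the median log2 ratio of the 88 genes was -0.65 in lhp1ab replicate 1, -0.055 in replicate 2 and -0.034 in replicate 3. The median SE of the log2 fold change was 0.14 with all libraries and 0.078 without replicate 1, against 0.079 and 0.074 in the weighted comparison genes.

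Changes over 1.5-fold took a smaller share of the many-exon genes than of all genes, with or without that library, while falls of at least 4-fold were near the background. For changes of more than 1.5-fold, 5 genes were called higher and 11 lower, 18.2% in all, by edgeR's test against that fold. Over all genes tested the background was 20.9% upward and 19.3% downward, 40.1% in all, and the weighted comparison genes had 44.0%. Without lhp1ab replicate 1 there were 7 upward and 9 downward, again 18.2%, against 40.4% of all genes tested and 45.1% of the weighted comparison genes. Called changes of at least 2-fold numbered 4 upward (4.55%) and 9 downward (10.2%), against 16.7% and 14.4% of all genes tested. At least 4-fold changes numbered 0 upward, against 6.87%, and 4 downward (4.55%), against 5.08%. Without lhp1ab replicate 1, 6 genes passed 2-fold upward and 9 downward, against 16.9% and 14.6% of all genes tested. Then 2 passed 4-fold upward and 4 downward, against 7.02% and 5.28%. Genes of 2 to 5 exons at 32 to 64 CPM in WT had, with all libraries, 10.98% at least 2-fold higher and 13.5% lower. At 4-fold they had 1.87% and 4.09%. At 64 CPM or more the shares were 6.99% and 26.3%, then 1.35% and 5.98%. The many-exon genes had 3.23% higher and 16.1% lower at 2-fold in the first range, and 6.67% each in the second. Rises of at least 4-fold were thus rare in few-exon genes of these levels too. The median size of the change, without regard to sign, was 0.47 on the log2 scale against 0.62 in the weighted comparison genes.

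Among long genes of 2 to 5 exons, the shares called were near those of the many-exon genes. Of the 127 genes with 2 to 5 exons, at least 4 kb of exons and a WT level in the same range, 61.4% were called and 20.5% changed by more than 1.5-fold. Their calls were divided otherwise, with 43 higher and 35 lower, and their median log2 fold change was 0.12. When lhp1ab replicate 1 was left out, 64 were higher and 35 lower (78.0% called), and the median was 0.23. Among the 88 genes, those with under 5 kb of exons had 8 of 34 called higher and 15 lower, and those with 5 kb or more had 4 of 54 higher and 23 lower. These counts without lhp1ab replicate 1 were 13 higher and 15 lower, and 15 higher and 23 lower. The backgrounds given above for higher and lower calls hold for these counts too. Within ranges of WT level, 16 of 31 genes between 32 and 64 CPM were called (51.6%, against 80.0% of the comparison genes), and 26 of 45 at 64 CPM or more (57.8%, against 86.4%). Without that library the shares were 67.7% against 81.7%, and 77.8% against 89.3%.

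The 4 largest falls were all on chromosome 11. The gene model maker-Chr11-exonerate_est2genome-gene-287.2, with 36 exons at 28730772 to 28744487 (plus strand), had 35.4, 36.5 and 30.9 CPM in WT and 1.20, 2.21 and 3.39 CPM in lhp1ab. The genotypes were far apart, and the level fell from 34.3 ± 2.95 to 2.27 ± 1.10 CPM (SD, n = 3), 14.7-fold (log2 fold change -3.88, SE 0.19, edgeR adjusted p = 1.66e-08). The model maker-Chr11-exonerate_est2genome-gene-50.32, with 37 exons at 5029012 to 5045508 (plus strand), had 80.8, 91.5 and 71.8 CPM in WT and 2.64, 6.86 and 7.96 CPM in lhp1ab. It fell 13.6-fold (log2 fold change -3.76, SE 0.23, edgeR adjusted p = 7.73e-08), and its CV of 48.2% in lhp1ab was among the largest of the set. Without lhp1ab replicate 1 the log2 fold changes were -3.58 and -3.42.

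The other falls on chromosome 11 were also without overlap between genotypes. A 31-exon gene at 3482330 to 3493570 (minus strand) had 63.8, 72.4 and 59.0 CPM in WT and 4.99, 8.16 and 10.2 CPM in lhp1ab, a fall of 8.10-fold (log2 fold change -3.02, SE 0.17, edgeR adjusted p = 3.88e-08). A 49-exon gene at 27128793 to 27163144 (plus strand) had 62.5, 66.7 and 56.0 CPM in WT and 8.84, 14.2 and 14.9 CPM in lhp1ab, and fell 4.72-fold (log2 fold change -2.24, SE 0.14, edgeR adjusted p = 1.06e-07). The log2 fold changes of this pair without lhp1ab replicate 1 were -2.78 and -2.04. In all 4 genes lhp1ab replicate 1 was the lowest library, and the other mutant libraries also lay far below WT.

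The next falls showed little of the replicate spread. A 33-exon gene on the minus strand of chromosome 6 at 1970340 to 1983984, had 32.8, 33.4 and 31.7 CPM in WT and 7.99, 9.01 and 8.999 CPM in lhp1ab, a fall of 3.63-fold (log2 fold change -1.86, SE 0.075, edgeR adjusted p = 3.05e-09). A 30-exon gene on the minus strand of chromosome 4 at 28342940 to 28357147, had 34.2, 32.8 and 30.5 CPM in WT and 9.80, 10.6 and 11.5 CPM in lhp1ab, and fell 2.95-fold (log2 fold change -1.56, SE 0.080, edgeR adjusted p = 2.02e-08). Their CVs in lhp1ab were 6.72% and 7.89%, far below the median of the set. The 38 falls had log2 fold changes from -3.88 to -0.29 with a median of -0.66, and 33 of them were called with each library left out in turn.

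The largest rises were smaller than the largest falls. The model maker-Chr10-exonerate_est2genome-gene-35.2, with 34 exons on the plus strand of chromosome 10 at 3496790 to 3508515, had 125, 139.7 and 121 CPM in WT and 391.9, 533 and 559 CPM in lhp1ab. It rose from 129 ± 9.73 to 495 ± 90.01 CPM (SD, n = 3), or 3.97-fold (log2 fold change 1.99, SE 0.11, edgeR adjusted p = 4.91e-08), and it overlaps a gene on the opposite strand. The model maker-Chr1-exonerate_est2genome-gene-331.8, with 42 exons on the minus strand of chromosome 1 at 33103469 to 33120460, had 51.9, 56.2 and 52.9 CPM in WT and 143, 207 and 211 CPM in lhp1ab. It rose 3.60-fold (log2 fold change 1.85, SE 0.12, edgeR adjusted p = 1.48e-07). In both, lhp1ab replicate 1 was the lowest mutant library and still lay well above WT.

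The other rises over 2-fold were both in strongly expressed genes. A 32-exon gene on the minus strand of chromosome 4 at 28382036 to 28404117, had 305, 356 and 273 CPM in WT and 573, 757 and 802 CPM in lhp1ab, a rise of 2.36-fold (log2 fold change 1.24, SE 0.12, edgeR adjusted p = 3.99e-06). A 34-exon gene on the plus strand of chromosome 1 at 34598876 to 34615899, had 169, 171 and 164 CPM in WT and 283, 370.2 and 391 CPM in lhp1ab, a rise of 2.14-fold (log2 fold change 1.10, SE 0.096, edgeR adjusted p = 1.52e-06). The first of these is the most abundant gene of the set in lhp1ab, at 711 CPM.

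The next rises without overlap of genotypes were smaller. A 51-exon gene on the minus strand of chromosome 8 at 8998468 to 9032268, had 33.8, 38.5 and 31.7 CPM in WT and 44.7, 69.3 and 72.5 CPM in lhp1ab, a rise of 1.85-fold (log2 fold change 0.89, SE 0.15, edgeR adjusted p = 0.000243). A 42-exon gene on the plus strand of chromosome 2 at 23870990 to 23892739, had 35.4, 37.5 and 34.3 CPM in WT and 44.7, 58.5 and 57.3 CPM in lhp1ab, a rise of 1.55-fold (log2 fold change 0.63, SE 0.090, edgeR adjusted p = 7.93e-05). The log2 fold changes of the 6 named rises without lhp1ab replicate 1 were 2.13, 2.00, 1.37, 1.23, 1.08 and 0.74. The 12 rises ranged from 0.38 to 1.99 on the log2 scale, and 10 of them were called with each library left out in turn.

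**Figure D5:**
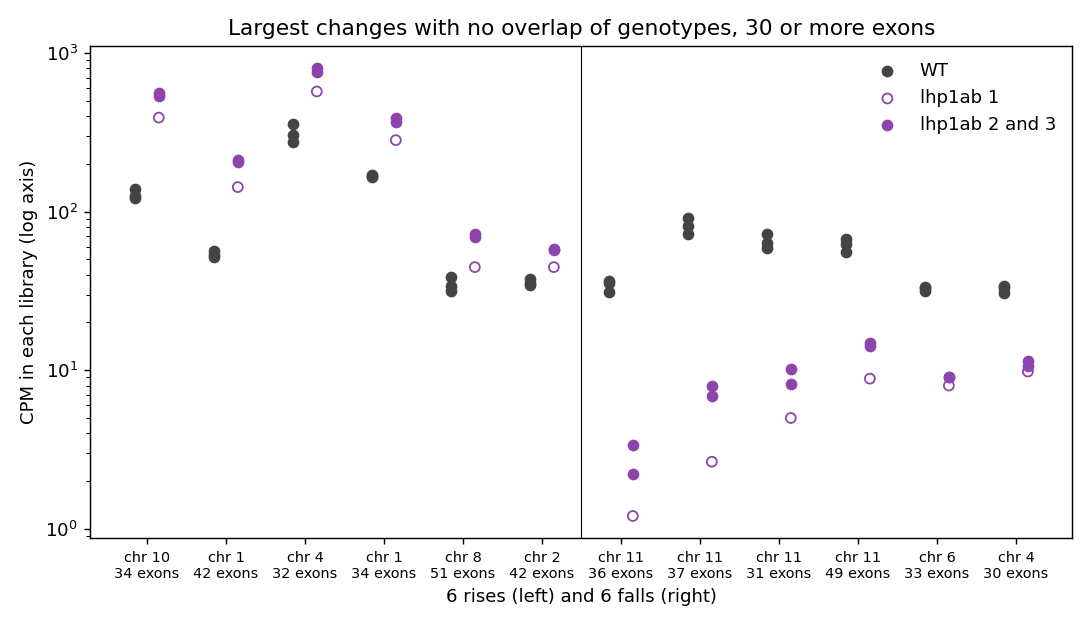
CPM in each library, on a log axis, of the 6 largest called rises and 6 largest called falls in lhp1ab among genes with 30 or more exons whose genotypes do not overlap and that reach 5 CPM; black points are WT libraries, open circles lhp1ab replicate 1 and filled purple points the other mutant libraries. The 63-exon gene on chromosome 4, which rose by 0.75 on the log2 scale, is not shown because its genotypes overlap; lhp1ab replicate 1 is the lowest mutant library in each of the 12.

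In the genes with the smallest changes, equal means went with unequal mutant libraries. A 52-exon gene on the minus strand of chromosome 2 at 4111570 to 4176230, had 180.1, 199.2 and 154 CPM in WT and 130.3, 186 and 199.9 CPM in lhp1ab, with a log2 fold change of -0.00023 (SE 0.14, edgeR adjusted p = 0.999). A 33-exon gene on chromosome 2, from 2978360 to 3004067, had 63.9, 73.7 and 57.9 CPM in WT and 41.0, 72.4 and 76.0 CPM in lhp1ab, and a log2 fold change of -0.00082 (SE 0.18, edgeR adjusted p = 0.997). A 32-exon gene on chromosome 9, from 23181167 to 23199346, had 56.6, 61.9 and 56.9 CPM in WT and 46.5, 63.3 and 62.3 CPM in lhp1ab (log2 fold change 0.022, SE 0.0995, edgeR adjusted p = 0.853). In each, lhp1ab replicate 1 was the lowest of all 6 libraries, and without it the log2 fold changes were 0.16, 0.23 and 0.15, of which the second and the third were called (adjusted p = 0.11, 0.0292 and 0.0478).

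At the limit of 30 exons, the spread was close on both sides and the calls rest on few genes. The 12 genes with exactly 30 exons had a median CV of 19.0% in lhp1ab and 5.73% in WT, with 0 called higher, 7 lower (58.3%) and a log2 fold change of -0.43 in the median. The 18 genes with 29 exons had 17.99% and 6.59%, with 1 called higher, 7 lower (38.9%) and a median of -0.15. Leaving lhp1ab replicate 1 out gave 2 higher and 7 lower at 30 exons (median -0.30), and 5 higher and 6 lower at 29 exons (median -0.015). Over all genes tested, 36.9% were called higher and 38.5% lower with all libraries, and 38.3% and 37.7% without that library. The 38.9% called lower at 29 exons was thus near the background.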

How the data were processed

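Leaf poly(A) RNA from 3 WT and 3 lhp1ab samples was sequenced. The labels call the replicates biological without saying whether each is 1 plant or a pool, so p-values cover only differences among these libraries. Raw gene counts were deposited, which the authors made with featureCounts 1.6.4 over exons, reverse-stranded, at a minimum mapping quality of 30, per the file headers. Reads overlapping several genes counted for each. The setting allowed multi-mapping reads, but only reads that reached the mapping quality of 30 could count, so counts of near-identical copies are uncertain. The submitters' processing notes also name Trimmomatic 0.38, STAR, DESeq2 and R 3.5.1. The reference table (28628 genes of another assembly) matched 0 of the 28299 identifiers.

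CPM were computed from library totals. All genes were tested with edgeR 4.0.16 (quasi-likelihood F-test, two-sided, TMM, filterByExpr, no covariates; R 4.3.3), with p-values adjusted by Benjamini-Hochberg over the 17988 genes tested, and with glmTreat against 1.5-fold. SE was taken from the log2 fold change and the F statistic. The test was tried on simulated data. Comparison genes (2 to 5 exons, mean WT CPM from 1.20 to 615) were weighted by the many-exon genes' numbers in ranges of WT CPM that double from 1 to 64, with 64 and over as 1 range. Their weighted medians are averages of the range medians with these weights. Deviations use TMM-scaled CPM with 0.5 counts added. Alternatives included DESeq2 1.42.0, limma-voom 3.58.1, other scalings and filters, and leaving out each library. The gene set and the lists were chosen with earlier results of these data known. Named genes are the 6 largest rises and falls (called, no overlap of genotypes, at least 5 CPM in the higher genotype) and the extremes in exon number, level per kb, evenness, spread and total count. Intervals and the floor of 3 counts cover counting error only. The LHP1 genes were not looked up.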

Additional observations from a re-analysis of the deposited data

How the results depend on the processing

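With all libraries, in 10 fits that changed the test, the scaling, the filter or the genes entered, 11 to 15 genes with 30 or more exons were called higher and 36 to 40 lower, no call turned to the opposite direction, and the median log2 fold change lay between -0.30 and -0.23. With each library left out, 10 to 28 were called higher and 33 to 42 lower, 4 to 7 were over 1.5-fold higher and 9 to 14 lower, and the median lay between -0.39 and -0.041. The 28 and the -0.041 came without lhp1ab replicate 1. The library left out moved the difference in counts share, lhp1ab minus WT, from -0.079 to 0.072 percentage points, and the share called, minus that of the comparison genes, from -27.9 to -9.42 percentage points (over 1.5-fold: -26.9 to -22.8). The ratio of CVs to the comparison genes lay between 1.03 and 4.73 in lhp1ab and between 1.33 and 1.96 in WT; with edgeR's gene-wise dispersion, which is moderated across genes, it was 1.72 in lhp1ab and 1.16 in WT. Comparison genes with at least 4 kb of exons, in ranges 4 times as wide, were chosen after the data were seen: the ratio was then 1.40 in lhp1ab and 1.13 in WT, the difference in called genes -4.36 percentage points, and that in genes over 1.5-fold turned to 0.90. Limits of 25 exons (206 genes) and 40 exons (26 genes) change the counts by construction, to 28 higher, 96 lower, 12 and 35 over 1.5-fold, and to 4, 10, 2 and 3. Only a replicate number links the genotypes: the correlation of deviations within numbers 1, 2 and 3 was 0.0035, 0.093 and -0.12, and WT replicate 3 had its highest value, 0.205, with lhp1ab replicate 1. With the replicate block 13 genes were called higher and 40 lower. The 33-exon gene on chromosome 2 from 2978360 turned from a log2 fold change of -0.00082 to 0.23 without lhp1ab replicate 1, and lay between -0.14 and 0.23 over the libraries left out. Thinning the libraries to equal totals left the number of detected genes per library unchanged.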

Other observations

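Chromosome 11 held 11 of the 88 genes, of which 5 were more than 1.5-fold lower in lhp1ab and 0 more than 1.5-fold higher. Their median log2 fold change was -0.70, against -0.02 over all genes tested on that chromosome, of which 19.0% were more than 1.5-fold lower. Without lhp1ab replicate 1 there were again 5 and 0, and the median was -0.73. A low median was not particular to chromosome 11. With all libraries the medians were -0.66, -0.54, -0.46, -0.42, -0.41 and -0.38 on chromosomes 7, 6, 8, 10, 3 and 9. On chromosomes 5, 2, 12, 1 and 4 they were -0.068, -0.00082, 0.044, 0.17 and 0.31. Without lhp1ab replicate 1 they were -0.48 and -0.35 on chromosomes 7 and 6, and 0.31, 0.16 and 0.50 on chromosomes 1, 2 and 4. The grouping of falls on chromosome 11 was noticed after the values were seen and was not tested.

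Neighbouring pairs of many-exon genes, 5.36 to 162 kb apart, numbered 9, and they moved apart in some cases and together in others. On chromosome 4, the 30-exon gene from 28342940 to 28357147 fell by 1.56 on the log2 scale and the 32-exon gene from 28382036 to 28404117 rose by 1.24, at a distance of 24.9 kb with 1 gene between them, and both are on the minus strand. On chromosome 2, the 52-exon gene from 4111570 to 4176230 was not called, and the next many-exon gene, from 4211036 to 4249084 and 34.8 kb away, fell by 1.21. Of the 5 pairs between 69.8 and 162 kb apart, both genes were called lower in 4, on chromosomes 6, 7, 9 and 10. Both were called higher in 1, on chromosome 1 (88.4 kb apart, log2 fold changes 1.85 and 0.38). Over all genes tested, 38.5% were called lower and 36.9% higher. The share of neighbouring pairs called alike over all genes was not computed. Whether neighbours moved together was not tested. In the closest pair, on chromosome 5 and 5.36 kb apart, neither gene was called, and in the pair on chromosome 11, 22.005 kb apart, 1 was called lower and the other was not called.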
